A study of Mus musculus with 24 samples.

Results

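The arrays of control extraocular muscle at 56 days were compared with those at 28 days. Extraocular muscles are the small muscles that move the eye. The series holds 24 Affymetrix arrays of total RNA from mouse extraocular muscle, of wild type (called control) and mdx mice aged 14, 28, 56 or 112 days, which makes 8 groups of 3. The 6 arrays compared here are those whose titles name control muscle at 28 days (3 arrays) and at 56 days (3 arrays), and the same step in mdx muscle (3 arrays at each age) is given beside it. In mdx mice a nonsense mutation in Dmd removes dystrophin, which links the actin of the fibre to its membrane and matrix, and the control mice are labelled wild type with no strain or sex given. The labels name no treatment and do not say whether the arrays of a group came from separate animals or from pooled muscles, so each p-value reflects spread among arrays that may be only technical.

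Between these ages a mouse passes from weaning to young adulthood. In growing skeletal muscle, fibroblasts lay down collagens, elastin and microfibrils around the fibres, and the fibres with their vessels make the laminins and type IV collagen of the basement membrane. The mRNA of these proteins is usually high while the tissue grows and lower once the matrix has been built, since collagen turns over slowly. The fibres themselves fill with contractile protein, and extraocular muscle is rich in fast fibres and in mitochondria.

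Of 12422 probe sets that are not controls of the manufacturer, 7453 had a mean level at or above an intensity of 125.7 and were tested. Intensities are given after each array had been scaled to a trimmed mean of 500. Log2 fold changes are of intensity + 16, which makes fold changes of dim probe sets too small, and are given ± SE from a limma fit over all 24 arrays. A probe set was called at a Benjamini-Hochberg adjusted p under 0.05. In control muscle 498 probe sets were called (6.68% of those tested), 242 higher at 56 days (3.25%) and 256 lower (3.43%). At an unadjusted p under 0.05 there were 2038. The called probe sets with 1 symbol stood for 226 genes that were higher and 218 that were lower, and 233 of the called probe sets differed by more than 2-fold. In 1904 tested probe sets (25.5%) the 3 arrays of one age did not overlap the 3 of the other. The count of calls rested on single arrays. Without 28-day replicate 2 it was 24, without 56-day replicate 3 it was 132, without 56-day replicate 2 it was 193, and without 28-day replicate 3 it was 292. A fit to the 6 control arrays alone called 0 probe sets, with 1364 at an unadjusted p under 0.05. All 498 calls kept their direction when any of the 6 arrays was left out. For 477 of them this was fixed in advance, since the arrays of the 2 ages did not overlap.

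The arrays of the 2 ages differed in how bright their brightest probe sets were. The largest intensity of an array was 14183, 26814 and 28543 at 28 days and 14716, 8746 and 11228 at 56 days, against 10836 to 27197 on the other 18 arrays. The first array of each age had nearly the same maximum, while the remaining pair at 28 days was bright and the remaining pair at 56 days was dim. The difference in the log2 maximum was -0.97 (exact permutation test, two-sided, p = 0.2, where 3 against 3 arrays cannot go below 0.1). The median log2 level of the 100 brightest probe sets was 13.38 at 28 days and 12.91 at 56 days, a difference of -0.47 (exact permutation p = 0.2). Replicate 2 at 56 days had the lowest mean correlation with the other arrays in the series, r = 0.806 across probe sets. With the log2 maximum of each array as a covariate in the fit, 0 probe sets were called, the smallest adjusted p was 0.0707 and 794 had an unadjusted p under 0.05. Since the covariate itself was lower on average at 56 days, this fit cannot separate array brightness from age.

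A control of the manufacturer moved with age in the same arrays. The probe set at the 3′ end of Gapdh, a glycolytic enzyme with abundant mRNA in muscle, read 1138, 12957 and 15329 at 28 days and 348, 490.02 and 78.3 at 56 days. The probe set at the middle of the same mRNA read 6974, 20984 and 23801 at 28 days and 8723, 2344 and 6139 at 56 days, with overlapping ages. The probe set at the 5′ end of the same mRNA read 9212, 14989 and 23730 at 28 days and 8415, 4680 and 6236 at 56 days. The ratio of 3′ to 5′ signal was thus 0.123, 0.864 and 0.646 at 28 days and 0.0414, 0.105 and 0.0126 at 56 days, with no overlap between the ages. On the 18 other arrays it ranged from 0.0517 to 0.809. For beta-actin the ratio was 0.698, 1.72 and 1.46 at 28 days and 1.14, 1.17 and 1.48 at 56 days, and these ranges overlapped. The part of array brightness and of the Gapdh 3′ signal in the results that follow was not tested beyond the fits named beside them.

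**Figure D1:**
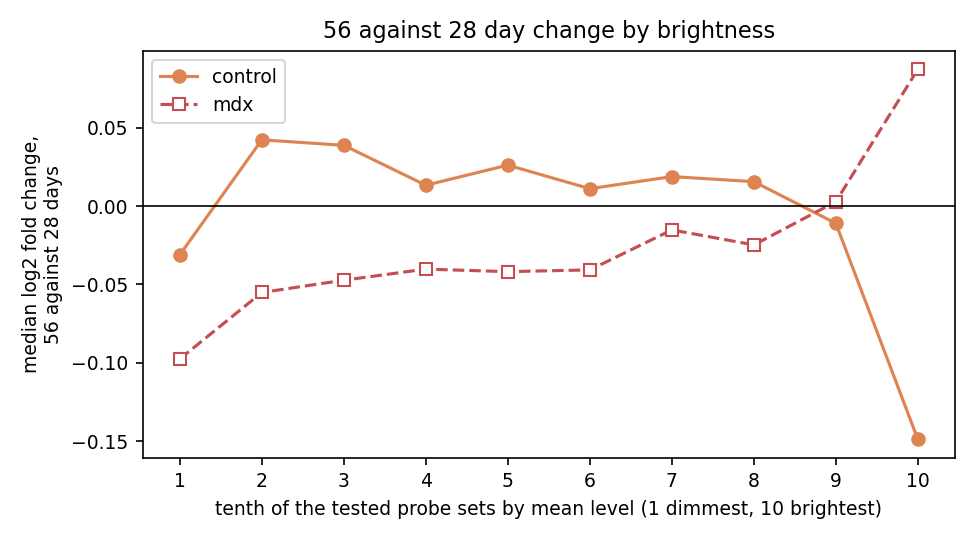
Median log2 fold change at 56 against 28 days (vertical axis) in 10 equal bins of the tested probe sets ordered by mean level (horizontal axis, 1 dimmest, 10 brightest), for control (filled circles) and mdx muscle (open squares). In control muscle the brightest bin lies at -0.149 and the other bins between -0.031 and 0.042, while in mdx muscle the brightest bin lies at 0.087.

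The brightest of 10 bins held probe sets with a mean intensity above 2211. There the median log2 fold change was -0.149 in control muscle, 61.3% of probe sets were lower at 56 days, and 41 were called lower and 12 higher. In mdx muscle the median of the same bin was 0.087 and 37.3% were lower. Over all tested probe sets the median was -0.01 in control and -0.02 in mdx muscle.

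The labelled tissue was checked against markers. Ckm, the muscle creatine kinase, read 8339, 13462 and 9354 at 28 days and 5508, 5051 and 6045 at 56 days on its brighter probe set. The other muscle markers, Acta1, Tnnc2 and Atp2a1, read lower on 56-day replicates 2 and 3 than on any 28-day array. On those replicates Acta1 read 290 and 502, against 5848 to 23550 at 28 days. Tnnc2 read 1359 and 1664 there, against 2346 to 15330 at 28 days. Keratins of surface epithelium (Krt5 and Krt14), photoreceptor genes (Gnat1 and Sag), the T cell gene Cd3e and the macrophage gene Adgre1 did not reach the level needed for testing. Other markers of cells beside the fibres did reach it, among them Cd68 and Csf1r of macrophages, Mbp and Pmp22 of myelin, Adipoq and Fabp4 of fat cells, and Alas2 of red cell precursors. Cma1 of mast cells, S100a8 of granulocytes and Dct of pigment cells reached it too. Dct read 306, 380 and 287 at 28 days and 148, 214 and 127 at 56 days. Csf1r read 695, 746 and 815 at 28 days and 689, 778 and 604 at 56 days on one probe set, with overlapping ages, and Adipoq read 1293, 1091 and 942 and 1105, 955 and 1343. A second Csf1r probe set read 170, 128 and 222 at 28 days and 191, 1616 and 373 at 56 days. Pdgfra, a receptor of fibroblasts, read 3078, 2247 and 1848 at 28 days and 1659, 2127 and 2471 at 56 days on its brighter probe set. Its other tested probe set read 186, 305 and 242 at 28 days and 190, 234 and 353 at 56 days. The ages overlapped on both. The fibroblast markers Col1a1 and Dcn are given with the matrix list. In whole muscle RNA, fewer cells of a type and less RNA per cell cannot be told apart.

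The gene list with the most calls was the extracellular matrix, and its calls were all lower at 56 days. The list of 53 matrix and fibroblast genes had 49 on the array and 45 tested, of which 41 were lower and 4 higher at 56 days. Of the 45, 19 were called lower and 0 called higher, where 3.43% of all tested probe sets were called lower. In 24 of them the 56-day arrays all lay below the 28-day arrays, and in 1 above, where 25.5% of all tested probe sets had no overlap in either direction. The median log2 fold change of the list was -0.66, against -0.01 over all tested probe sets. Without 28-day replicate 2 there were 6 calls and the median was -0.57, without 56-day replicate 2 there were 10 calls, and the 45 genes had a median of -0.68 and 0 calls with the array maximum as a covariate.

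Among the fibril-forming collagens, Col1a2, a chain of type I collagen, read 4577, 7136 and 7273 at 28 days and 2700.3, 2069 and 2802 at 56 days. The ages did not overlap, and the lowest 28-day array was well above the highest 56-day array. The log2 fold change of Col1a2 was -1.30 ± 0.22 (limma adjusted p = 0.00559), a fold of 2.47. Col1a1, the partner chain of type I collagen, read 10287, 12364 and 20648 at 28 days and 6369.5, 4271 and 5855 at 56 days, a log2 fold change of -1.35 ± 0.38 (adjusted p = 0.039). A second Col1a1 probe set had -0.35 ± 0.21 and was not called (adjusted p = 0.276). Col3a1, the chain of type III collagen, was called lower on all 3 of its probe sets, and on the brightest it read 7886, 9907 and 8639 at 28 days and 4492, 3741 and 5031 at 56 days, a log2 fold change of -0.996 ± 0.28 (adjusted p = 0.0359). The 56-day arrays lay below the 28-day arrays on each of these 3 probe sets.

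Col5a1, a chain of type V collagen that takes part in starting fibrils, read 2308, 2539.7 and 2504 at 28 days and 1505, 1534 and 1452 at 56 days, a log2 fold change of -0.70 ± 0.14 (adjusted p = 0.0105). Col5a2, its partner chain, changed by -1.16 ± 0.23 on the log2 scale (adjusted p = 0.0105). All 3 chains of the microfibrillar type VI collagen were called lower, Col6a1 with a log2 fold change of -1.08, Col6a2 with -0.86 and Col6a3 with -0.86.

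The promoters of 2 genes are shown for the members that moved in the matrix group and in the heat shock group. Sequences are from RefSeq on build GRCm38.p6, 5′ to 3′ on the strand of the gene, and end at the base before the annotated start of the gene. Col1a2 lies on the plus strand, with the window chr6:4505498-4505617, and capitals mark CCAAT, the letters bound by the factor NF-Y. Hspa1b lies on the minus strand, with the window chr17:34959239-34959488, and capitals mark GAANNTTC, a pair of inverted units of the heat shock element bound by HSF1.
Col1a2: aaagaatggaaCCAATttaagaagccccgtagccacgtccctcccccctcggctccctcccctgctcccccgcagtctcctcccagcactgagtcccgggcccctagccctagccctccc
Hspa1b: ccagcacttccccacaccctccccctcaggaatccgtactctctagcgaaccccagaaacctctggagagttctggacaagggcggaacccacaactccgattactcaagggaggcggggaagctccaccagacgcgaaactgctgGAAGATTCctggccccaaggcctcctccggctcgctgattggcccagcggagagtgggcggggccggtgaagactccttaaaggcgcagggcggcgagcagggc
The match started 109 bases before the start of Col1a2 and 104 bases before that of Hspa1b. CCAAT, searched on both strands in the 250 bases before the start, was found in 34.5% of 27025 RefSeq promoters. It was found in 5 of 14 called matrix genes with a promoter in the table (35.7%) and in 7 of 19 that were not called (36.8%), shares close to that of all promoters. GAANNTTC was found in 6.78% of all promoters, in 0 of the 14 called matrix genes and in 0 of the 19 not called. It was found in 1 of the 2 called heat shock genes, Hspa1b.

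Called genes also included chains of the basement membrane. Lamb1, the laminin beta 1 chain, read 1029.7, 1086 and 1101 at 28 days and 642, 454 and 548 at 56 days. The log2 fold change of Lamb1 was -0.96 ± 0.16 (adjusted p = 0.00559), while a dimmer probe set had -0.39 ± 0.31 and was not called (adjusted p = 0.434). Lamc1, the laminin gamma 1 chain found in most laminins, read 1314, 1724 and 1515 at 28 days and 736, 563 and 592 at 56 days, a log2 fold change of -1.25 ± 0.21 (adjusted p = 0.00559). Both laminin chains were lower on every 56-day array. Lama2, the laminin alpha 2 chain that binds the dystrophin complex from outside the fibre, fell by 0.70 on the log2 scale (adjusted p = 0.0174). Of the type IV collagen chains, Col4a1 changed by -1.16 ± 0.25 (log2, adjusted p = 0.0163), as did Col4a2 by -0.81 ± 0.16 (adjusted p = 0.0105). Lama5, a laminin alpha chain counted in the junction list, read 334, 394 and 353 at 28 days and 607, 769 and 454 at 56 days. Its 56-day arrays all lay above the 28-day arrays, and it was not called (0.71 ± 0.30, adjusted p = 0.139).

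Elastic fibre and processing genes were called as well. Eln, which encodes elastin, read 6779.9, 10083 and 13454 at 28 days and 4337, 2929 and 3777 at 56 days, that is -1.42 ± 0.31 as a log2 difference (adjusted p = 0.0174). A dim second Eln probe set was not called, with 0.31 ± 0.62. Mfap2, a microfibril protein, had a log2 fold change of -1.20, and Pcolce, which helps to trim procollagen, had -1.08. P4hb, the beta subunit of the enzyme that hydroxylates collagen, read 1692, 3259 and 3577 at 28 days and 961, 329.8 and 915 at 56 days on the brighter probe set, a log2 fold change of -1.999 ± 0.43 (adjusted p = 0.0163). Its dimmer probe set had 0.42 ± 0.28 in the other direction and was not called (adjusted p = 0.338). Members of the list that were not called included Dcn (-0.66), Lum (-0.25), Timp3 (-0.15) and Lox (-0.24), all log2 fold changes. Fbln1, an extracellular glycoprotein, was not called on the probe set used for the list (-0.17), while 1 of its 3 probe sets was called lower (-0.64 ± 0.19, adjusted p = 0.0415).

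**Figure D2:**
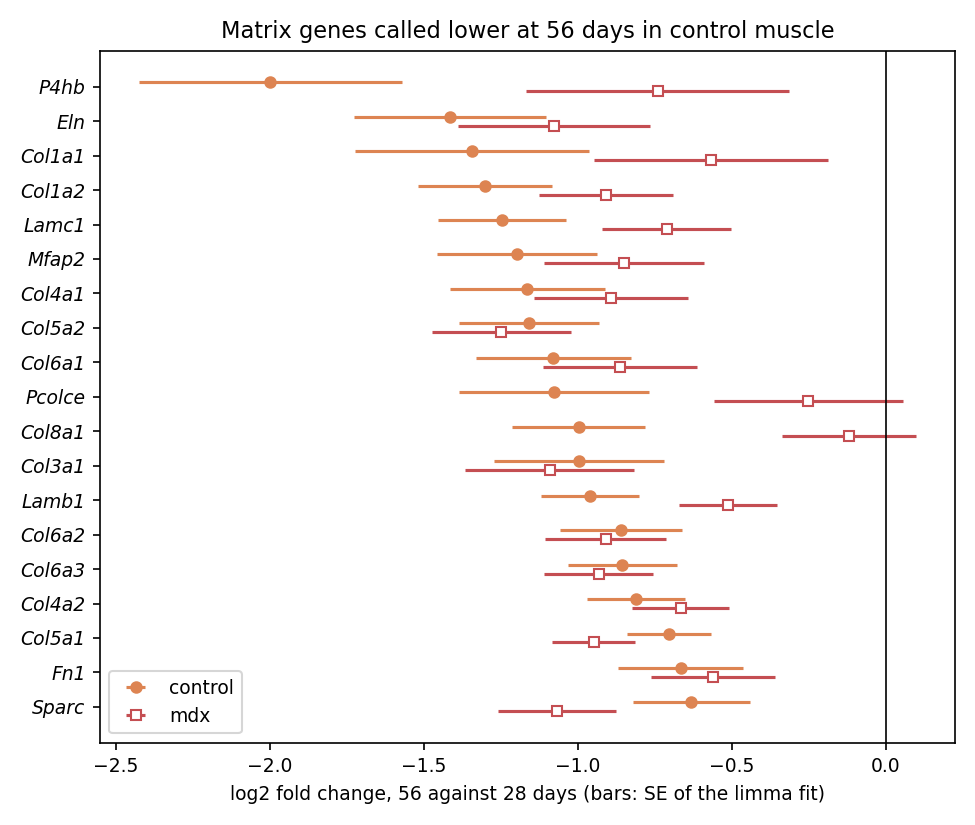
Log2 fold change at 56 against 28 days (horizontal axis) of the 19 matrix genes called lower in control muscle, in control (filled circles) and mdx muscle (open squares), with bars of 1 SE. All 19 points of both genotypes lie below 0, and the control values run from -1.999 for P4hb to -0.63 for Sparc.

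The means of these genes at the other ages are given without a test. Col3a1 started from 11360.1 ± 1736 at 14 days, read 8811 ± 1021 at 28 days, then 4421 ± 648 at 56 days and 1963 ± 827 by 112 days (SD of 3 arrays). Col1a1 read 13592 ± 4585, 14433 ± 5482, 5498 ± 1094 and 2086 ± 1169 at the same ages. For Eln the values were 10602 ± 3638, 10105 ± 3337, 3681 ± 709 and 1865 ± 618. The 14-day and 28-day means differed by less than the SD for Col1a1 and Eln, and the lowest mean of Col3a1, Col1a1 and Eln was at 112 days. Lamb1 read 1426 ± 122, 1072 ± 37.5, 548 ± 93.9 and 548 ± 57.1, so that its mean was level from 56 to 112 days.

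Matrix genes were mostly lower in mdx muscle over the same step too. Of the 45 tested matrix genes 40 were lower at 56 days in mdx muscle and 4 were called lower, where 0.228% of all probe sets tested were called in that contrast (17, with 688 at an unadjusted p under 0.05). The median was -0.60, and 38 of the 45 had the same sign in both genotypes. Col5a1 read 2803, 2429 and 2988 at 28 days and 1511, 1477 and 1246 at 56 days in mdx muscle, a log2 fold change of -0.95 ± 0.14 (limma adjusted p = 0.00146). Col5a2 (-1.25), Col6a3 (-0.93) and Sparc (-1.07), a collagen-binding protein, were the other matrix genes called in mdx muscle. The difference between the control and mdx steps was called for 0 of the 45, with adjusted p-values of 0.497 or more.

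**Figure D3:**
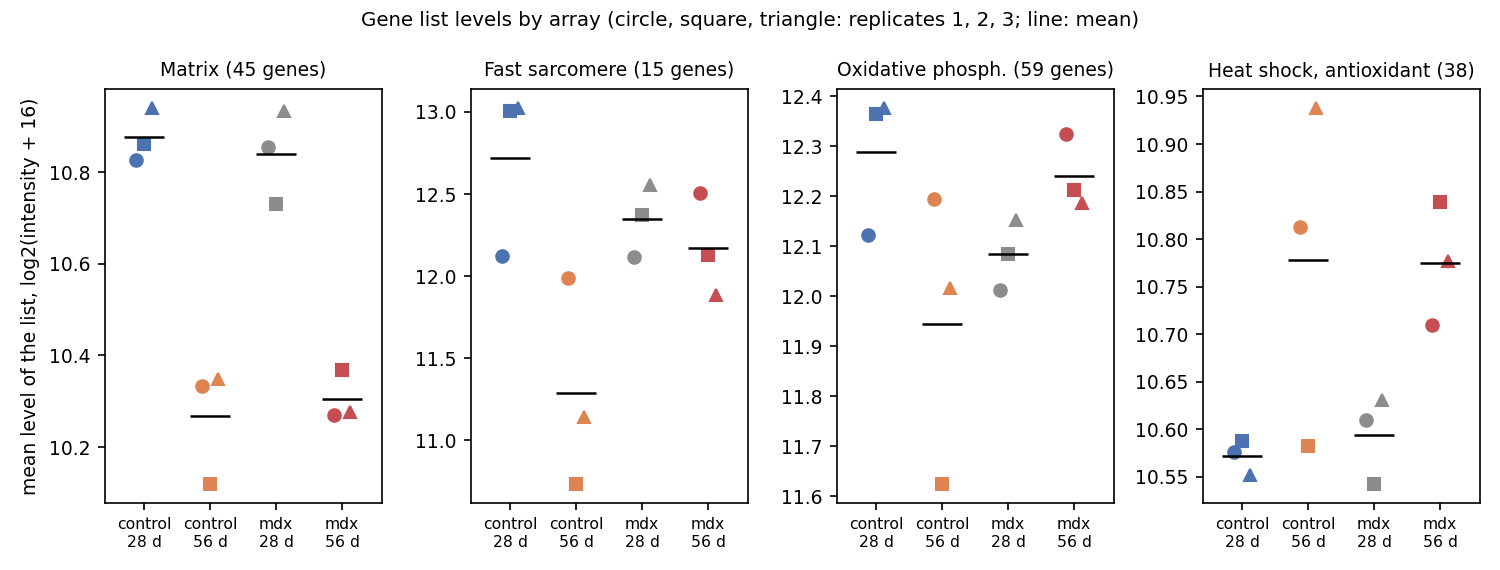
Mean log2 level of 4 gene lists (vertical axis, log2 of intensity + 16) on each array of control and mdx muscle at 28 and 56 days (horizontal axis); circle, square and triangle are replicates 1, 2 and 3 and lines are group means. The matrix list lies between 10.83 and 10.94 at 28 days and between 10.12 and 10.35 at 56 days in control muscle, and the ages are also apart in mdx muscle.

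By array, the mean level of the matrix list was 10.83, 10.86 and 10.94 at 28 days and 10.33, 10.12 and 10.35 at 56 days in control muscle. In mdx muscle it was 10.86, 10.73 and 10.93 at 28 days and 10.27, 10.37 and 10.28 at 56 days. The ages were apart in both genotypes. Between the first array of each age in control muscle, which had nearly the same maximum, 37 of the 45 matrix genes were lower at 56 days. The median difference was -0.62, against -0.05 over all tested probe sets, of which 4003 of 7453 were lower. This sets 1 array against 1, picked for their maxima, so it has no test.

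Called falls among genes of fast fibres were larger than those of the matrix for Acta1, Atp2a1 and Myl1, and uneven across arrays. The list of fast sarcomere genes had 15 tested members, of which 13 were lower and 2 higher at 56 days in control muscle. Of these, 6 were called lower and 0 called higher, where 3.43% of all tested probe sets were called lower. In 4 the arrays of the ages did not overlap, a share near the 25.5% of all tested probe sets. The median log2 fold change was -1.19 in control and 0.04 in mdx muscle. With the array maximum as a covariate the median in control muscle was -0.12 with 0 calls, after quantile normalization -0.63 with 3 calls, and with all arrays held to the lowest array maximum -0.64 with 3 calls. The array maximum was lower on average at 56 days. On 28-day replicates 2 and 3 it was the signal of Tnnt3 and Myh1, members of this list. The covariate fit therefore cannot separate array brightness from a change in the list itself. Leaving out either 56-day replicate 2 or 3, or 28-day replicate 2 or 3, left 1 call.

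Acta1, the actin of adult skeletal muscle, read 5848, 23550.1 and 19338 at 28 days and 2662, 290.4 and 502 at 56 days. The ages did not overlap, but the 28-day arrays alone spanned a wide range and replicate 1 at 56 days stood well above the other two. The log2 fold change of Acta1 was -4.21 ± 1.18 (adjusted p = 0.0384). Atp2a1, the calcium pump of fast fibres, was called on both probe sets, with -4.57 ± 1.12 (adjusted p = 0.0257) and -3.73 ± 0.86 (adjusted p = 0.0194). The second of these read 2729.6, 11022 and 9996 at 28 days and 1682, 254 and 268 at 56 days. Myl1, the alkali light chain of fast myosin, read 7033, 21205 and 20279.7 at 28 days and 9477, 266 and 939 at 56 days. Its first 56-day array lay above its first 28-day array, and the log2 fold change of -3.41 ± 1.002 (adjusted p = 0.0447) had the remaining arrays far apart.

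The remaining calls of this list were smaller. Tnni2, the fast inhibitory troponin, read 2165, 2266 and 2095 at 28 days and 1434, 649 and 903 at 56 days, a log2 fold change of -1.19 ± 0.21 (adjusted p = 0.00951). The 28-day values of Tnni2 lay close together. Its control mean was 2094 ± 188 at 14 days and 2324 ± 114 at 112 days (SD of 3 arrays). The 56-day arrays of Tnni2 were thus low beside both neighbouring ages. Myh1, a fast myosin heavy chain, read 11705, 22383 and 28543 and 12593, 5964 and 8029 at the 2 ages, that is -1.21 ± 0.35 as a log2 difference (adjusted p = 0.0409). Ckm changed by -0.88 ± 0.23 on its brighter probe set (adjusted p = 0.0324), and the dim one had 0.09 and was not called. Not called were Tnnt3 (-1.09, adjusted p = 0.058), the calcium store protein Casq1 (-1.38), the myosin chain Myh4 (-1.28), Tnnc2 (-1.43) and Myoz1 (-0.82). Pvalb (-0.05), the calcium buffer of fast fibres, Mylpf (0.06), Tpm1 (0.04) and Actn3 (-0.03), also not called, had log2 fold changes near 0. Control means at 56 and 112 days, without a test, were 5534 and 8961 for Ckm and 8862 and 11656.5 for Myh1. They were 1151 and 5268 for Acta1 and 3560 and 3979 for Myl1. The 2 Atp2a1 probe sets had 285 and 1288, and 734 and 604.

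The mean level of the fast list on the 6 control arrays came nearly in the order of the array maxima. In control muscle it was 12.12, 13.01 and 13.03 at 28 days and 11.99, 10.73 and 11.14 at 56 days. The maximum of 28-day replicate 2 was the signal of Tnnt3 and that of replicate 3 the signal of Myh1, both members of this list. The list was thus set partly against its own members, and the shared order is in part built in. Between the first array of each age, with nearly the same maximum, 8 of 15 members were lower at 56 days and the median difference was -0.08. Over all tested probe sets 4003 of 7453 were lower in that pair, with a median difference of -0.05. The pair is 1 array against 1, picked for its maxima, so these differences have no test. Replicates 2 and 3 at 28 days had the highest list level and the largest maxima, and replicates 2 and 3 at 56 days the lowest of both. In mdx muscle the list ranged from 12.12 to 12.56 at 28 days and from 11.88 to 12.51 at 56 days. The difference between the control and mdx steps was called for 0 of the 15 genes (adjusted p from 0.497 to 0.995).

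**Figure D4:**
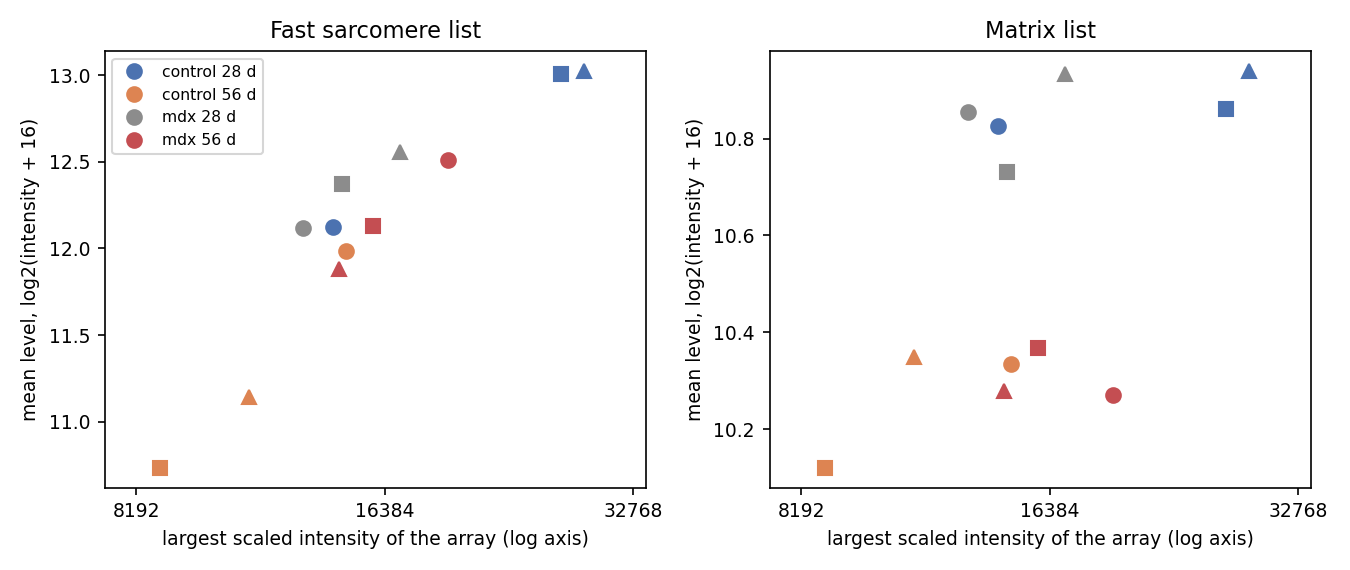
Mean log2 level of the fast sarcomere list (left) and the matrix list (right) on each array of control and mdx muscle at 28 and 56 days, against the largest scaled intensity of that array (horizontal, log axis); circle, square and triangle are replicates 1, 2 and 3. The fast list is lowest (10.73) on the control 56-day array with the smallest maximum (8746) and highest on the arrays with the largest. The maxima of control 28-day replicates 2 and 3 are the signals of Tnnt3 and Myh1, members of that list. On the first control array of each age, at maxima of 14183 and 14716, the matrix list is at 10.83 and 10.33. The fast list is there at 12.12 and 11.99.

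Some of the brightest probe sets outside this list were called lower too. Of the 10 brightest probe sets, beside Myh1, Rps24, a ribosomal protein, was called lower with -1.34 (adjusted p = 0.0499), and its dim second probe set had -0.09. Actc1, the cardiac actin, was called on 1 of its 2 bright probe sets (-1.44 and -0.60). Not called among the brightest were Tnnt3, Cox6c (-0.84), Uqcrb (-0.26), Ndufb2 (-0.86), Tpt1 (-1.33) and Atp5c1 (-0.79). Uqcrb, a subunit of respiratory complex III, was the brightest probe set on 56-day replicates 2 and 3.

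Of the slow and cardiac sarcomere genes 11 of 15 were lower, but 1 was called, and it was higher, where 3.25% of all tested probe sets were called higher. Atp2a2, the calcium pump of slow and cardiac fibres, read 944, 650.4 and 794 at 28 days and 1571, 1436 and 1677 at 56 days. All 56-day arrays were above all 28-day arrays, by 0.97 ± 0.27 in log2 fold change (adjusted p = 0.0348), and in mdx muscle the value was 0.93 ± 0.27, not called (adjusted p = 0.181). The median of this list was -0.40, and 0.18 with the array maximum as a covariate. Of 13 calcium and excitation genes 3 were called, against 6.68% of all tested probe sets in either direction. Here Atp1b1, a subunit of the sodium pump, was called higher (0.65 ± 0.20, adjusted p = 0.0483) beside Atp2a2, and Atp2a1 was the 1 called lower.

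In the dystrophin complex and the Z-disc, 17 genes were tested, with 1 called higher and 2 called lower, against 3.25% and 3.43% of all tested probe sets. Dmd read 198, 221 and 235 at 28 days and 357, 568 and 717 at 56 days, a log2 fold change of 1.22 ± 0.28 (adjusted p = 0.0204). Each 56-day array was above each 28-day array. In mdx muscle the same probe set read 123, 94.7 and 128 and 104, 143 and 137 at the 2 ages, below every control array. Utrn, the autosomal relative of dystrophin, read 227, 41.5 and 307 at 28 days and 268, 599 and 384 at 56 days and was not called (1.32 ± 0.50, adjusted p = 0.0984). Des, the intermediate filament desmin, was called lower (-0.83 ± 0.24, adjusted p = 0.0445), with Lama2 the other. Dag1 (0.07), Sgca (-0.13) and Sgcb (0.25) were not called.

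In energy metabolism calls were made in both directions. Of 59 genes of oxidative phosphorylation 47 were lower, with 2 called lower and 1 called higher, where 3.43% and 3.25% of all tested probe sets were called in these directions. The median was -0.36 and became 0.06 with the array maximum as a covariate and -0.05 after quantile normalization. Ndufv3, a small subunit of complex I, was called higher (0.84 ± 0.23, adjusted p = 0.0324), and Ndufb5 (-1.71 ± 0.50, adjusted p = 0.0442) and Atp5k (-0.80 ± 0.23, adjusted p = 0.0392) lower. Ndufb5 was bright, at 9439, 23000.0 and 23459 at 28 days and 10837, 2192 and 6075 at 56 days, and its first arrays overlapped. Of 40 genes for the citric acid cycle or for burning fatty acids 26 were higher, with a median of 0.20, and 2 were called higher and 1 lower, shares near those of all tested probe sets. Acadl, the long-chain acyl-CoA dehydrogenase, read 1931, 2091 and 1983 at 28 days and 3388, 3415 and 4474 at 56 days. The ages did not overlap, and the log2 fold change of Acadl was 0.89 ± 0.24 (adjusted p = 0.0328). Cd36, a fatty acid transporter, was called higher (1.11 ± 0.30, adjusted p = 0.035), and Mdh2, a bright malate dehydrogenase, lower (-1.40 ± 0.40, adjusted p = 0.0413).

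In glycolysis and glycogen metabolism 2 of 25 tested genes were called in each direction, against 3.25% of all tested probe sets called higher and 3.43% lower. Ugp2, which makes the sugar donor for glycogen, read 2491, 2942 and 2455 at 28 days and 3808, 3849.7 and 4278 at 56 days, a log2 fold change of 0.60 ± 0.13 (adjusted p = 0.0174) with no overlap. Slc16a1, a lactate carrier, was called higher (1.13 ± 0.31, adjusted p = 0.0348). Eno3, the muscle enolase, read 10197, 14876 and 22039 at 28 days and 9254, 1257 and 2481 at 56 days and was called lower (-2.28 ± 0.58, adjusted p = 0.0307). Pkm, a pyruvate kinase, was called lower (-1.12 ± 0.30, adjusted p = 0.0324), and a second Pkm probe set had -1.20 and was not called.

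Chaperone and antioxidant genes were mostly higher. Of 38 tested 27 were higher at 56 days, with a median of 0.24, and 2 were called higher and 0 lower, where 3.25% of all tested probe sets were called higher. Hspa1b, the inducible heat shock protein of the Hsp70 family, read 471, 289.9 and 536 at 28 days and 894, 881 and 1627 at 56 days. All 56-day arrays lay above all 28-day arrays, and the log2 fold change of Hspa1b was 1.34 ± 0.24 (adjusted p = 0.00951). In mdx muscle it read 473, 447 and 587 and 898, 1019 and 971 at the 2 ages, a difference of 0.92 ± 0.24 that was not called (adjusted p = 0.148). Hsph1, a nucleotide exchange factor of Hsp70, read 1487, 1313 and 1259 at 28 days and 2519, 1758 and 2370.2 at 56 days, a log2 fold change of 0.69 ± 0.15 (adjusted p = 0.0174). Hspa1a (0.48), Hspe1 (0.60), Hspa5 (0.46) and Hsp90aa1 (0.56) were not called. Without 28-day replicate 2 the list held 0 calls.

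Of 32 proteasome and atrophy genes 23 were higher, with a median of 0.11, and 2 were called higher and 0 lower, where 3.25% of all tested probe sets were called higher. Psma1, a subunit of the proteasome core, read 657, 383 and 537 at 28 days and 870.2, 1496 and 1011 at 56 days, a log2 fold change of 1.07 ± 0.22 (adjusted p = 0.014). Psmd14, the deubiquitinase of the proteasome lid, had 0.64 ± 0.15 (adjusted p = 0.0206). Both had no overlap between the ages. Without 28-day replicate 2 the list had a median of -0.015, with 17 of 32 genes lower and 0 calls. Psmb5, a further proteasome subunit named after its values were seen, had 1 of 2 probe sets called lower (-1.66). The other Psmb5 probe set had 0.72 and was not called.

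Genes of fibre development, the nerve-muscle junction, growth signals and the clock held 1 call in each list, where 6.68% of all tested probe sets were called in either direction. Of 19 developmental genes 1 was called, the embryonic and atrial myosin light chain Myl4 (-0.82 ± 0.23, adjusted p = 0.037), whose second probe set had -0.69 and was not called, and the cell cycle inhibitor Cdkn1c (-0.70, adjusted p = 0.0504) lay just outside the threshold. The embryonic and perinatal myosins Myh3 (-0.24) and Myh8 (-0.02) were not called. Of 15 junction genes Nes, which encodes the filament protein nestin, was called lower (-0.76 ± 0.22, adjusted p = 0.0447). Of 26 growth factor and hormone genes Thra, a thyroid hormone receptor, was called lower (-0.63 ± 0.18, adjusted p = 0.0413). A second Thra probe set had 0.52 ± 0.38 in the other direction and was not called (adjusted p = 0.391). Vegfa, the endothelial growth factor, was not called (1.42 ± 0.44, adjusted p = 0.0512). Of 16 clock genes Bhlhe40, a transcriptional repressor, was called higher (0.88 ± 0.26, adjusted p = 0.0481).

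Lists of markers of other cells and neighbouring tissues held between 0 and 2 calls each, to be read against the 6.68% of all tested probe sets called in either direction. In the vessel list of 23 tested genes, Cnn1 of smooth muscle (-1.67 ± 0.43, adjusted p = 0.0307) and Des, also counted in the Z-disc list, were called lower. In 8 of the 23 the 56-day arrays all lay below the 28-day arrays and in 1 above, against 25.5% of all tested probe sets in either direction. The summed intensity of the list was 27407 to 32868 at 28 days and 21682 to 24468 at 56 days. The smooth muscle gene Myh11 read 1121, 958 and 1044 at 28 days and 576, 804 and 684 at 56 days. Acta2 read 1410, 2763 and 1990 at 28 days and 1411, 1567 and 1286 at 56 days, with overlap. The endothelial genes Pecam1 (-0.05), Cdh5 (-0.24) and Tek (0.09) were not called. Of 20 macrophage genes the chemokine gene Ccl2 was called higher (1.24 ± 0.35, adjusted p = 0.0408), with a summed intensity of the list of 15458 to 16391 at 28 days and 14651 to 16415 at 56 days. Of 10 lacrimal and Harderian gland genes Dmbt1 was called lower (-1.76 ± 0.37, adjusted p = 0.0155), while the summed intensity was 5730 to 7586 at 28 days and 8210 to 8305 at 56 days. Of 17 adipocyte genes Aoc3, an amine oxidase, was called lower (-0.89) and Cd36 higher, and of 9 erythroid genes Slc4a1, the anion exchanger of red cells, was called lower (-1.07). Of 24 interferon genes 1 was called lower, Rsad2 (-1.20), an antiviral enzyme. The lists of proliferation, lymphocyte, mast cell and granulocyte, nerve and myelin, retina, epithelium and melanocyte, and immediate early genes held 0 calls by limma. The part of other cell types in the fall of matrix RNA was not tested.

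The largest rises among genes with non-overlapping arrays were of mixed function. Pla2g12a, a secreted phospholipase, read 625, 338 and 640.3 at 28 days and 1888, 1774 and 2376 at 56 days, a log2 fold change of 1.92 ± 0.27 (adjusted p = 0.00134). Its brighter second probe set had -0.60 ± 0.29 in the other direction and was not called. Dnajb9, a chaperone partner of the endoplasmic reticulum, was called on both probe sets and read 117, 51.2 and 198 at 28 days and 415, 397 and 535 at 56 days on the first (1.89 ± 0.37, adjusted p = 0.011). Its second probe set had 1.22 ± 0.29 (adjusted p = 0.0207). Blcap read 95.6, 129.9 and 179 at 28 days and 569, 610.2 and 434 at 56 days (1.90 ± 0.35, adjusted p = 0.00951). Control means at 28, 56 and 112 days were 534, 2013 and 1262 for Pla2g12a on this probe set. They were 122, 449 and 200 for Dnajb9 on its first probe set and 135, 538 and 299 for Blcap, all without a test. The splicing factor Srsf10 (2.05), the tetraspanin Tspan8 (2.04), the DNA break repair gene Nbn (1.85), Ciapin1 (1.76), Gpcpd1 (1.75), AI506816 (1.73) and Ppp1r3c (1.65), a glycogen-targeting subunit of protein phosphatase 1, completed the 10. Several of these were dim at 28 days, Srsf10 at 178, 16.3 and 26.6 and Tspan8 at 144, 24.9 and 8.83, where the added 16 is large beside the intensity. A second Srsf10 probe set had 0.31 and was not called.

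Among the falls, Mau2, a loader of cohesin onto chromosomes, had the smallest adjusted p of the contrast. It read 310.3, 513 and 440.1 at 28 days and 90.9, 53.4 and 75.7 at 56 days, a log2 fold change of -2.28 ± 0.29 (adjusted p = 0.000646). The mdx value was -0.39 ± 0.29 and not called. Its mean in control muscle was 330.1 ± 89.3 at 14 days and 379 ± 52.5 at 112 days (SD, n = 3), near the 28-day level, so the 56-day arrays were low beside both neighbouring ages. Among named genes with non-overlapping arrays, the largest falls beside Acta1, Atp2a1, Mau2, Eno3 and P4hb were Pcnt (-2.23), of the centrosome, Hs3st3a1 (-2.20), a heparan sulfate sulfotransferase, the kinase Wnk1 (-2.17), the repressor Tcf7l1 (-2.06) and the immunoglobulin segment Ighv1-54 (-2.03). Other probe sets of Wnk1 (-0.79 and 0.29) and Tcf7l1 (-0.72) were not called.

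Probe sets of one gene often gave different answers. Of 913 genes with several tested probe sets, 132 had at least 1 call, 9 had 2 or more calls in one direction, and in 86 of the 132 all probe sets had the same direction. Mtor, named here after its values were seen, was the 1 gene called in both directions. One probe set read 381, 308 and 374 at 28 days and 811, 1503 and 653 at 56 days (1.35 ± 0.25, adjusted p = 0.00951). The other Mtor probe set read 648, 711 and 793 and 357, 112 and 338 (-1.51 ± 0.31, adjusted p = 0.0127), so no direction can be given for this kinase.

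Most probe sets called in control muscle had the same sign in mdx muscle. Of the 498 called in control muscle 419 (84.1%) had the same sign in mdx muscle, against 63.9% of all tested. The 242 called higher had a median of 0.90 in control and 0.26 in mdx muscle, and the 256 called lower had -1.09 and -0.28. The control medians are those of probe sets chosen for their size in control muscle, so the difference between the genotypes in these medians has no test. In mdx muscle 17 probe sets were called, 4 higher and 13 lower, and 7 of these were called in the same direction in control muscle, which is 7 of 17 and 7 of 498. Besides Col5a1, Col5a2, Col6a3, Sparc and a dimmer probe set of Col3a1 (-2.03 ± 0.29, adjusted p = 0.00146), these were Nrep (-1.08 in control, -1.13 in mdx) and Kdelr3 (-1.04 in control, -1.15 in mdx), a receptor that returns proteins to the endoplasmic reticulum. Nrep and Kdelr3 are named as the rest of the 7, after their values were seen.

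**Figure D5:**
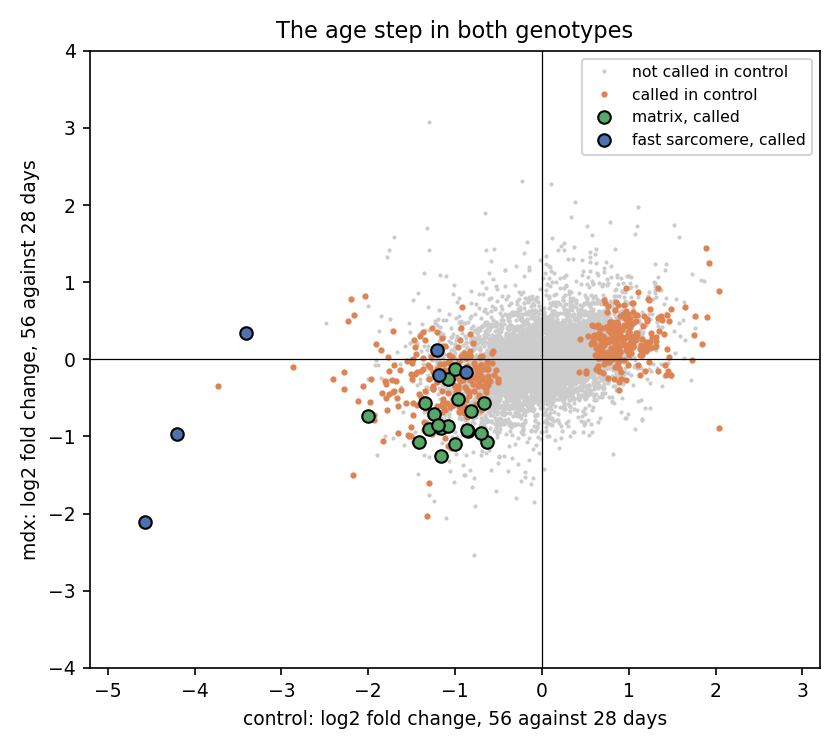
Log2 fold change at 56 against 28 days of each tested probe set in control (horizontal axis) and mdx muscle (vertical axis), with those called in control muscle in colour, called matrix genes in green and called fast sarcomere genes in blue. The 19 matrix genes lie below 0 in both genotypes, while Acta1 and Atp2a1 lie far to the left at -4.21 and -4.57.

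The difference between the control and mdx steps was called for 1 probe set of 7453 (0.0134%), with 673 at an unadjusted p under 0.05. It was Dmwd, which read 388, 506 and 347 at 28 days and 409.5, 299 and 338 at 56 days in control muscle, with overlapping ages. In mdx muscle it read 84, 72.4 and 62 at 28 days and 399, 384 and 491 at 56 days. The mdx 28-day arrays were the low ones, and the control step was -0.23 ± 0.23 against 2.31 ± 0.23 in mdx muscle (adjusted p of the difference = 0.000998).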

How the data were processed

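The authors deposited linear intensities, 1 for each probe set of an array. The labels name only a standard Affymetrix protocol, and for the software nothing is given in the sources used. The deposited 2% trimmed mean of every array lay near 1500.8. Here 44 values under 1 were set to 1, arrays were scaled to a 2% trimmed mean of 500, 16 was added and log2 taken. The 66 control probe sets were left out, and probe sets under the 40th percentile of mean level were not tested. The manufacturer's Gapdh and beta-actin controls were read only as a check of RNA ends, chosen after the data were seen.

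One limma model (limma 3.58.1, R 4.3.3) with 8 group means was fitted to 24 arrays (16 residual degrees of freedom, variance trend), with two-sided tests and Benjamini-Hochberg adjustment in each contrast. The script was tested on simulated data. The number of arrays limits the precision. Gene names came from the platform annotation, 10833 with 1 symbol, 396 with several and 1193 with none. In a list, a gene was represented by its brightest probe set.

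Members and gene lists were chosen with earlier results of these data known. Named genes were up to 10 rising and 10 falling called genes with non-overlapping arrays, by size, with the probe set of smallest p. Added to these were up to 4 members of each list with the smallest p, Dmd, all fast sarcomere genes, the 10 brightest probe sets and the calls of the age by genotype contrast. Further list members are named as examples of the list.

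The labels do not say that a replicate number marks a pair, and the numbers were not taken as pairs. The correlation of the deviations of arrays of the same number in control muscle was 0.0548, 0.143 and 0.0107 for numbers 1, 2 and 3. For arrays of unlike number it ran from -0.157 to 0.155. With 3 arrays in a group these values cannot decide whether the numbers mark pairs. Alternatives covered normalization, offset, filter, arrays in the fit, the replicate block, the array maximum, array weights and each array left out.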

Additional observations from a re-analysis of the deposited data

Results flagged for a closer look

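Dmwd had a different step in the 2 genotypes by a test of the difference itself. The control step minus the mdx step was -2.54 on the log2 scale (limma, adjusted p = 0.000998). Its mean in control muscle was 414 ± 82.6 at 28 days, with 349 ± 56 at 56 days (SD of 3 arrays). In mdx muscle it went from 273 ± 30.5 at 14 days to 72.8 ± 11 at 28 days, and was 425 ± 57.5 at 56 days and 357 ± 84.9 at 112 days. All 3 mdx arrays at 28 days lay below every control array at 28 and 56 days. The cause was not tested.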

How the results depend on the processing

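All 498 calls in control muscle kept their sign in each alternative that tested them. For the 477 whose arrays did not overlap, leaving out 1 array could not change the sign. The count was 247 with arrays scaled to a common median (35.2% higher, against 48.6%), 1513 with array weights, 0 with only the 6 arrays compared and 0 with the array maximum as a covariate. Leaving out 1 array gave 24 to 700 calls, and replicates 2 and 3 at both ages moved it most. The cause of these shifts was not tested. With the replicate block it was 481 over all 24 arrays and 0 over the 6 arrays, where the block leaves few degrees of freedom.

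The mdx count of 17 was 4 with a common median, 75 with only the mdx arrays compared, 233 with array weights, 84 without the arrays that stand apart and 3 to 20 with 1 array left out. The count of 1 for the difference between steps was 2 with no filter, 0 with a stricter filter, where Dmwd was not tested, 28 with array weights, 0 with the replicate block over the arrays compared and 1 to 8 with 1 array left out.

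Of 28 list medians 15 changed sign in at least 1 alternative, the highest numbers being 9 with the array maximum as a covariate and 5 without the brightest 10% of probe sets. Those whose median exceeded the spread of the list mean between arrays of a group are given. With the array maximum as a covariate the slow and cardiac list had 0.177, oxidative phosphorylation 0.0636 and immediate early genes 0.0109. The slow and cardiac list had 0.084 without the brightest 10% of probe sets, the lacrimal list 0.0441 with the stricter filter and the retina list -0.63 to 0.0796 with 1 array left out, the latter without 56-day replicate 1. Of 73 called named values 11 to 65 were still called with 1 array left out.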

Other observations

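Of the other gene groups, 22 of 24 tested interferon and antigen presentation genes were higher at 56 days in mdx muscle, with a median log2 fold change of 0.54 and 0 calls, against 16 of 24 and a median of 0.14 in control muscle. By array, the mean level of the list in mdx muscle was 9.12, 8.96 and 9.10 at 28 days. At 56 days it was 9.97, 9.24 and 9.82, with replicate 2 nearest the 28-day arrays. Iigp1, an interferon-induced GTPase, had a log2 fold change of 1.52 ± 0.48 in control muscle (limma adjusted p = 0.0586) and 1.74 ± 0.48 in mdx muscle (adjusted p = 0.172). Of 28 immediate early genes 21 were lower in mdx muscle with a median of -0.43 and 0 calls, and 16 were lower in control muscle with a median of -0.11. The difference between the genotypes was called for 0 genes of either list.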
